A study of Sus scrofa with 18 samples.

Results

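Kidneys of pigs that had been transplanted without carbon monoxide and sampled at 4 h were compared with naive kidneys that had not been transplanted. The comparison uses 6 of the 18 arrays of the series, chosen by the source labels: 4 arrays of untreated grafts, from donors 1 to 4, and 2 arrays of naive kidneys. Each array is an Affymetrix pig expression array hybridised with RNA of whole kidney, and its values are log2 levels per probe set, the group of short probes that reads 1 transcript. Besides these, the series holds 4 carbon monoxide (CO) grafts at 4 h from the same donors 1 to 4, and 4 untreated and 4 CO grafts at 24 h from donors 5 to 8. The treatment field of untreated grafts reads air, as does that of the CO grafts, and no donor or time is given for the naive kidneys. Breed, age, the time the organs were stored and who received the gas are not given in the sources used here. Nothing in the labels says that each array comes from a separate recipient, so p-values measure the spread between these arrays.

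When a kidney is stored and blood flow returns, oxygen shortage and the sudden return of oxygen damage proteins, mitochondria and membranes, and the tubules, which consume most of the organ's energy, are hit hardest. Cells answer within hours with heat shock chaperones that refold proteins, immediate early transcription factors such as FOS and MYC, and the unfolded protein response of the endoplasmic reticulum (ER). Injured tubule cells also release signals that draw phagocytes, while transporters and channels that define the nephron are often reduced.

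The array of the untreated graft of donor 1 stood apart from the rest of its group. Its mean correlation was 0.982 with the naive arrays and 0.956 with the other grafts of its group, over 23999 probe sets, whereas the naive arrays correlated with each other at 0.988. All results are therefore given with all 4 grafts and with the 3 grafts of donors 2, 3 and 4. The array was set aside because of its values, so the p-values without it may be too small. Why it stood apart was not tested. Of kidney defining genes, the endocytic receptor LRP2 of the proximal tubule read 10.20 and 10.09 on the naive arrays, 9.64 for donor 1 and 8.34, 8.75 and 9.07 for donors 2, 3 and 4, and the water channel AQP1 read between 10.08 and 11.18 on all 6 arrays at its brighter probe set. UMOD, SLC34A1, SLC12A1, AQP2 and PODXL had no named probe set here. Array medians lay between 3.80 and 3.89 and the 3′ minus 5′ log2 difference of the actin control, a measure of RNA integrity, between 1.54 and 2.06 on the 6 arrays.

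With all 4 grafts, 361 of 23999 probe sets passed an adjusted p of 0.05 in limma, of which 226 were higher in the grafts (0.942% of those tested) and 135 lower (0.563%). Without the donor 1 graft, 3347 passed, 1693 higher (7.05%) and 1654 lower (6.89%), and all 361 were among them with the same direction. The median difference over all probe sets was -0.027 with and -0.030 without that graft. The count with all grafts was small and unsteady: it was 6 without naive 1, 2 without naive 2, 13, 14 and 80 without donors 2, 3 and 4, and 0 when only these groups were fitted (3960 at an unadjusted p under 0.05). Without donor 1 it ranged from 1220 to 3731 when a further array was left out, lowest without naive 2, and was 1257 without naive 1 and 1973 without donor 3. Below, a gene rose or fell if it passed without donor 1, and genes that also passed with all 4 grafts are named as such. Counts of list members are to be read against the shares of all probe sets: 7.05% higher and 6.89% lower without donor 1, 0.942% and 0.563% with all grafts. For counts at an unadjusted p under 0.05 with all grafts, the background is 4973 of 23999 probe sets. Values after ± are standard errors from limma, the adjusted p is its Benjamini-Hochberg value over all 23999 probe sets, n is 2 naive and 4 (or 3) grafts, and "the 3 grafts" are those of donors 2, 3 and 4.

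**Figure D1:**
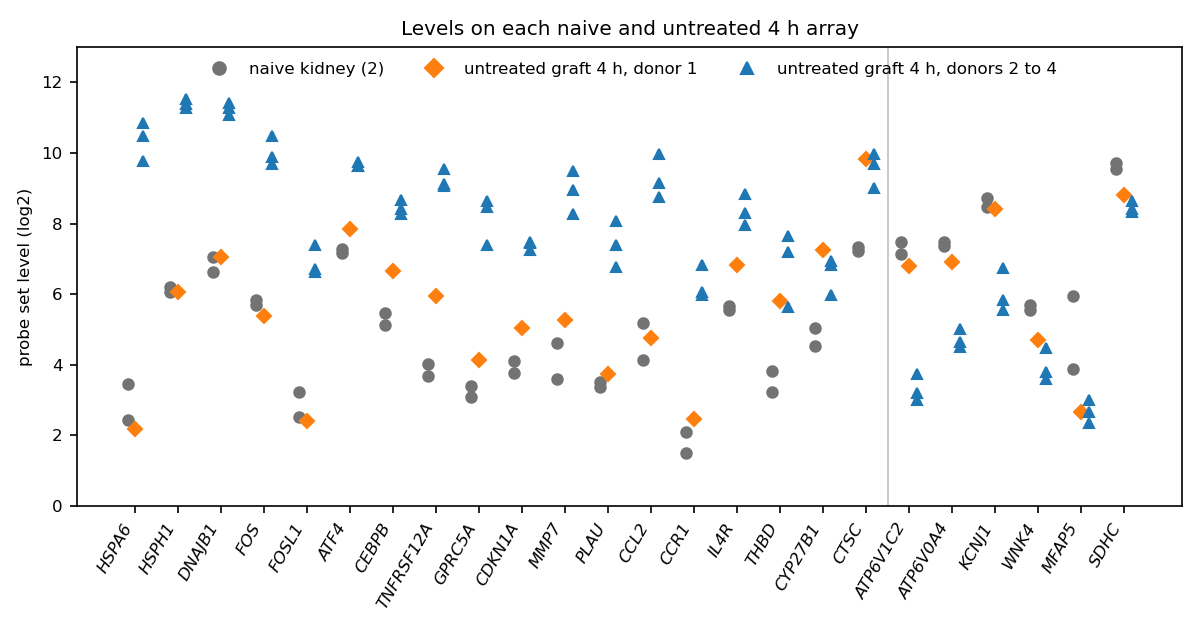
Log2 levels of 24 genes on each of the 6 arrays, with grey circles for naive kidneys, the orange diamond for the untreated graft of donor 1 and blue triangles for those of donors 2, 3 and 4; genes right of the line fell. For HSPA6 the orange diamond lies at 2.17, below both naive arrays, while the blue triangles lie at 9.78 to 10.86; for CTSC the diamond lies among the triangles and for CYP27B1, at 7.26, above them.

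Heat shock genes rose in the 3 grafts, with the highest median of the 39 gene lists. Of 26 measured members of the list, 23 rose without donor 1 and 1 rose with all 4 grafts, with a median difference of 2.18 and 1.72. The median over all probe sets was near 0, and only 7.05% of probe sets rose without donor 1 (0.942% with all). HSPA6, a strictly stress-inducible HSP70, read 3.47 and 2.45 on the naive arrays, 2.17 for donor 1 and 9.78, 10.49 and 10.86 for donors 2, 3 and 4. The 3 grafts do not overlap the naive arrays and the donor 1 graft is below both. The difference was 7.42 ± 0.82 without donor 1 (adjusted p = 4.79e-05) and 5.37 ± 1.70 with it (adjusted p = 0.0935). HSPH1, an HSP110 that helps HSP70 release its clients, read 6.08 and 6.21 on the naive arrays, 6.06 for donor 1 and 11.27, 11.40 and 11.54 for the 3 grafts. Donor 1 was again level with the naive kidneys, and the difference without it was 5.26 ± 0.42 (adjusted p = 3.84e-06).

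Of the co-chaperones, DNAJB1, which delivers clients to HSP70, read 7.05 and 6.64 on the naive arrays and 11.08, 11.28 and 11.40 for the 3 grafts, against 7.05 for donor 1 (4.41 ± 0.58, adjusted p = 0.000173). DNAJA4 read 3.47 and 4.24 in naive kidney and 8.96, 8.41 and 9.05 in the 3 grafts, against 3.09 for donor 1 (4.96 ± 0.61, adjusted p = 0.0001). Its dimmer probe set stood at 0.085 without donor 1. BAG3, which sends HSP70 clients to autophagy, read 6.08 and 5.50 in naive kidney, 6.29 for donor 1 and 9.002, 9.27 and 9.37 in the 3 grafts (3.42 ± 0.59, adjusted p = 0.00134). HSP70.2, the pig name of an inducible HSP70, rose to 12.61, 12.55 and 12.56 from 8.39 and 8.03 at 1 probe set (4.36 ± 0.50) and by 3.71 ± 0.49 at the brightest, and the smallest difference over its 3 probe sets was 3.26. Inducible HSP70 genes are nearly identical, so these probe sets may read more than 1 of them. ZFAND2A, an arsenite- and heat-inducible protein that binds the proteasome, rose from 3.52 and 3.08 to 9.07, 8.84 and 8.18, with donor 1 at 3.38. The member that passed with all 4 grafts was HSP90AA1, the inducible HSP90 (1.67 ± 0.39, adjusted p = 0.0468). Over its 5 probe sets the difference without donor 1 ran from -0.16 to 3.42. The transcription factors HSF1 and HSF2, and HSPE1, the mitochondrial partner of HSPD1, did not pass.

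Of 22 measured immediate early genes, 14 rose and 1 fell without donor 1 (3 rose with all grafts), with a median of 1.56 (1.26). FOS, a subunit of AP-1, read 5.83 and 5.70 in naive kidney, 5.39 for donor 1 and 9.68, 9.88 and 10.49 in the 3 grafts, a difference of 4.25 ± 0.72 (adjusted p = 0.00128). FOSL1, another AP-1 subunit, read 2.53 and 3.23 in naive kidney, 2.42 for donor 1 and 6.62, 7.39 and 6.72 in the others (4.03 ± 0.49, adjusted p = 0.0001). Over the 3 probe sets of FOSL1 the difference without donor 1 ran from 1.505 to 4.03. Both genes left donor 1 at or below the naive arrays. MYC, which drives growth and ribosome making, passed with all 4 grafts too: it read 4.65 and 4.64, then 5.67 for donor 1 and 7.45, 8.14 and 7.90 for the rest (2.64 ± 0.51, adjusted p = 0.0284 with all; 3.18 ± 0.34 without). For MYC all grafts lay above the naive kidneys, with donor 1 the lowest of them. EGR1 (1.56 ± 0.42, adjusted p = 0.0208) and ATF3 (2.82 ± 0.74, adjusted p = 0.0188) rose without donor 1. Over its 3 probe sets EGR1 ran from 0.757 to 2.33. The falling member was NR4A2, a nuclear receptor (-1.42 ± 0.38).

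Signals of the ER stress and amino acid response rose at 15 of 25 measured members without donor 1 (3 with all grafts) and fell at none, with a median of 1.18 (0.94). ATF4, the transcription factor whose translation is released when eIF2α is phosphorylated, read 7.29 and 7.16 in naive kidney, 7.84 for donor 1 and 9.63, 9.74 and 9.64 for donors 2, 3 and 4. All 4 grafts were higher than both naive arrays, and the 3 grafts lay within a narrow range. The difference was 1.99 ± 0.42 with all grafts (adjusted p = 0.0359) and 2.45 ± 0.27 without donor 1. At the dimmer probe set of ATF4 it was 0.02 without donor 1. CEBPB, which shares ATF4's targets and drives acute phase genes, read 5.47 and 5.13 in naive kidney, 6.67 for donor 1 and 8.66, 8.42 and 8.27 for the rest (2.71 ± 0.48, adjusted p = 0.021 with all). DDIT3, the ATF4-induced factor CHOP, rose by 2.91 ± 0.68 without donor 1 (adjusted p = 0.0104), with donor 1 at 4.28 among naive arrays at 4.16 and 4.43. HSPA5, the ER chaperone BiP, also rose (1.75 ± 0.22), whereas PHGDH and PSAT1, enzymes of serine synthesis that ATF4 can induce, stood at -0.87 and -0.99 and did not pass.

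Injury markers of the tubule rose at 14 of 23 measured members without donor 1 (5 with all grafts), 1 fell, and the median was 1.40 (1.03). TNFRSF12A, the receptor of TWEAK, read 4.03 and 3.68 in naive kidney, 5.95 for donor 1 and 9.06, 9.54 and 9.11 in the 3 grafts (5.39 ± 0.30 without donor 1, adjusted p = 1.71e-07), and rose by 3.92 ± 0.29 at its brighter probe set. GPRC5A, an orphan receptor induced in epithelial injury, read 3.10 and 3.39 in naive kidney, 4.14 for donor 1 and 7.40, 8.64 and 8.48 in the rest (3.92 ± 0.81, adjusted p = 0.0352 with all). Over its 3 probe sets the difference without donor 1 ran from 1.95 to 4.93. In both genes donor 1 was above the naive arrays and well below the other grafts. MMP7, a matrix protease made by injured tubules, read 3.61 and 4.63, 5.27 for donor 1 and 8.26, 8.97 and 9.49 in the rest (3.88 ± 0.80, adjusted p = 0.0354 with all). TIMP1, its inhibitor, read 4.87 and 5.11 in naive kidney, 5.21 for donor 1 and 9.99, 8.67 and 7.96 in the 3 grafts (3.88 ± 0.57, adjusted p = 0.000428). SPP1 (osteopontin), LGALS3 (galectin-3), KRT18 and VIM rose without donor 1, by 2.67, 2.49, 2.16 and 1.24. CLU, the extracellular chaperone clusterin, read 8.16 and 8.41 in naive kidney, 8.21 for donor 1 and 9.95, 9.46 and 9.65 in the 3 grafts (1.40 ± 0.26, adjusted p = 0.00216). SOX9 (0.04) and IL18 (0.06) did not pass. The fall was PROM1 (-1.53).

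Stress and arrest genes of the p53 list rose at 7 of 23 members and fell at 2 without donor 1 (2 and 1 with all). Among all probe sets, 7.05% rose and 6.89% fell without donor 1. CDKN1A, the cell cycle inhibitor p21, read 3.77 and 4.10 in naive kidney, 5.03 for donor 1 and 7.25, 7.46 and 7.48 in the 3 grafts. The 3 grafts lay close together, while donor 1 stood between them and naive (2.87 ± 0.54, adjusted p = 0.0257 with all). GADD45B, a stress sensor that also passed with all grafts, rose by 1.93 ± 0.45 (adjusted p = 0.0467). Other members of the list moved both ways. PLK2 (1.05) rose without donor 1, while TP53I3 fell with all grafts (-0.95) and SESN1 fell without donor 1 (-1.03).

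Of 31 measured members of the matrix and protease list, 9 rose and 1 fell without donor 1, and 1, MMP7, rose with all. Of all probe sets, 7.05% rose and 6.89% fell without donor 1, and 0.942% rose with all. PLAU, the urokinase that makes plasmin, read 3.51 and 3.39 in naive kidney, 3.75 for donor 1 and 6.77, 7.40 and 8.07 in the 3 grafts (3.96 ± 0.44, adjusted p = 5.23e-05). PLAT, the other plasminogen activator, read 5.34 and 5.16, 5.64 for donor 1 and 8.69, 8.80 and 7.70 in the 3 grafts (3.15 ± 0.40, adjusted p = 0.000124). ADAMTS1, a protease of versican, read 6.90 and 6.70 in naive kidney and 10.18, 10.79 and 10.30 in the 3 grafts, with donor 1 at 6.77 (3.62 ± 0.33, adjusted p = 1.18e-05). Versican itself (VCAN) rose by 2.91. COL1A2 (-0.07) and COL3A1 (0.48) did not pass.

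Of 23 cytokine receptors and NF-κB members, 15 rose without donor 1 (4 with all) and none fell, with a median of 1.48 (1.18). Of 22 cytokines and chemokines, 5 rose and 1 fell without donor 1 and 0 passed with all (5 at an unadjusted p under 0.05), with a median of 0.10 (0.31). The difference between the shares of these 2 lists was not tested. Without donor 1, 7.05% of all probe sets rose and 6.89% fell. IL4R, the receptor of interleukin 4, passed with all grafts: it read 5.65 and 5.56 in naive kidney, 6.82 for donor 1 and 8.29, 8.83 and 7.96 in the rest (2.37 ± 0.36, adjusted p = 0.0133). TNFRSF1B, a receptor of tumour necrosis factor, read 4.46 and 5.15, then 5.71 for donor 1 and 8.27, 8.15 and 7.52 (2.61 ± 0.52, adjusted p = 0.0309). IL1R1, which binds interleukin 1, read 3.04 and 3.65, then 3.98 for donor 1 and 6.68, 6.62 and 5.87 (2.44 ± 0.55, adjusted p = 0.0427). The dimmer probe set of IL1R1 stood at -0.03 without donor 1. In each of these receptors donor 1 was the lowest graft but lay above both naive arrays. CCL2, the monocyte attractant, read 4.15 and 5.18 in naive kidney, 4.77 for donor 1 and 9.14, 9.98 and 8.74 in the 3 grafts (4.63 ± 0.74, adjusted p = 0.000855). Array background was set at 1.61, the 95th percentile of 17 tag control probe sets of the array, and a fold against a mean below it is a lower bound. LIF, an interleukin 6 family cytokine, was below background in naive kidney and on the donor 1 array, and read 5.55, 6.40 and 6.66 in the 3 grafts, at least 24.2-fold higher without donor 1 (adjusted p = 1.26e-05). CXCL8, the neutrophil attractant, was likewise below background in naive kidney and rose at least 8.78-fold (adjusted p = 0.000461). Of the classical inflammatory cytokines, TNF read 3.20 and 3.12 in naive kidney and 3.14, 3.37 and 3.08 in the 3 grafts (0.03 ± 0.34, adjusted p = 0.974). IL1B stood at 1.03 ± 0.46 (adjusted p = 0.155), and IL6 rose at least 1.97-fold (adjusted p = 0.0477) from a naive mean below background.

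Markers of granulocytes and macrophages rose at 10 of 28 members without donor 1 and at 1 with all grafts, with a median of 1.72 (1.41), and none fell. In whole kidney, more cells of a type and more RNA per cell cannot be told apart. S100A9, an alarmin of neutrophils and monocytes, had a naive mean below background (1.27 and 1.90), read 1.37 for donor 1 and 6.38, 5.90 and 7.03 in the 3 grafts, at least 28.4-fold higher without donor 1 (adjusted p = 0.000775). CCR1, a chemokine receptor of monocytes, read 1.504 and 2.09 in naive kidney, 2.46 for donor 1 and 6.82, 5.98 and 6.07 in the 3 grafts (4.49 ± 0.65, adjusted p = 0.00038). CD163, the scavenger receptor of macrophages, read 3.25 and 4.06, 5.66 for donor 1 and 7.15, 6.22 and 7.25 in the 3 grafts (3.22 ± 0.75, adjusted p = 0.00949). SRGN, the proteoglycan of leukocyte granules, passed with all grafts (2.88 ± 0.68, adjusted p = 0.0476). Over the whole list, the mean of its genes above naive was 0.64 for donor 1, 1.91 for donor 2, 1.23 for donor 3 and 1.28 for donor 4. Members that did not pass lay on both sides of 0: C1QA stood at -0.38, C1QC at -1.07 and MRC1 at -0.39, but PLEK at 2.46 and GP91-PHOX at 2.21.

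Lymphocyte markers had 0 of 21 members passing in either fit (1 of 21 at an unadjusted p under 0.05 with all grafts). Their mean above naive was 0.78 for donor 1 and 0.80 for donor 2, against 0.01 and -0.00 for donors 3 and 4. The donor 1 graft shared this with donor 2 although it lacked the heat shock rise. Of 23 interferon-induced genes, 2 rose without donor 1, near the 7.05% of all probe sets, and 1 with all (0.942% of all probe sets). That gene was ISG15, a ubiquitin-like antiviral protein, which read 5.13 and 6.39 in naive kidney, 7.59 for donor 1 and 8.83, 7.95 and 7.81 in the rest (2.28 ± 0.48, adjusted p = 0.0355 with all). The interferon list was 0.86 above naive for donor 1 and 1.43, 0.74 and 0.51 above it for donors 2, 3 and 4, while the naive arrays lay 0.31 apart from their mean on either side. Markers of platelets (3), endothelium (14), urothelium (5) and adrenal or fat tissue (12) had 0 members passing in either fit, and 1, 3, 0 and 1 had an unadjusted p under 0.05 with all grafts. Of other cell markers, 1 of 5 erythroid genes, the globin HBM (1.01 ± 0.28, adjusted p = 0.0246), and 1 of 10 smooth muscle genes, SMTN (1.66 ± 0.30, adjusted p = 0.00206), rose without donor 1. HBM read 1.49 and 2.20 in naive kidney, near background, and the brighter globin HBB stood at -0.56 and did not pass. SLN, a calcium pump regulator, rose as 1 of 18 skeletal and cardiac muscle genes, with all grafts (3.08 ± 0.70, adjusted p = 0.043). The mean scores are in the plot of gene lists by array.

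**Figure D2:**
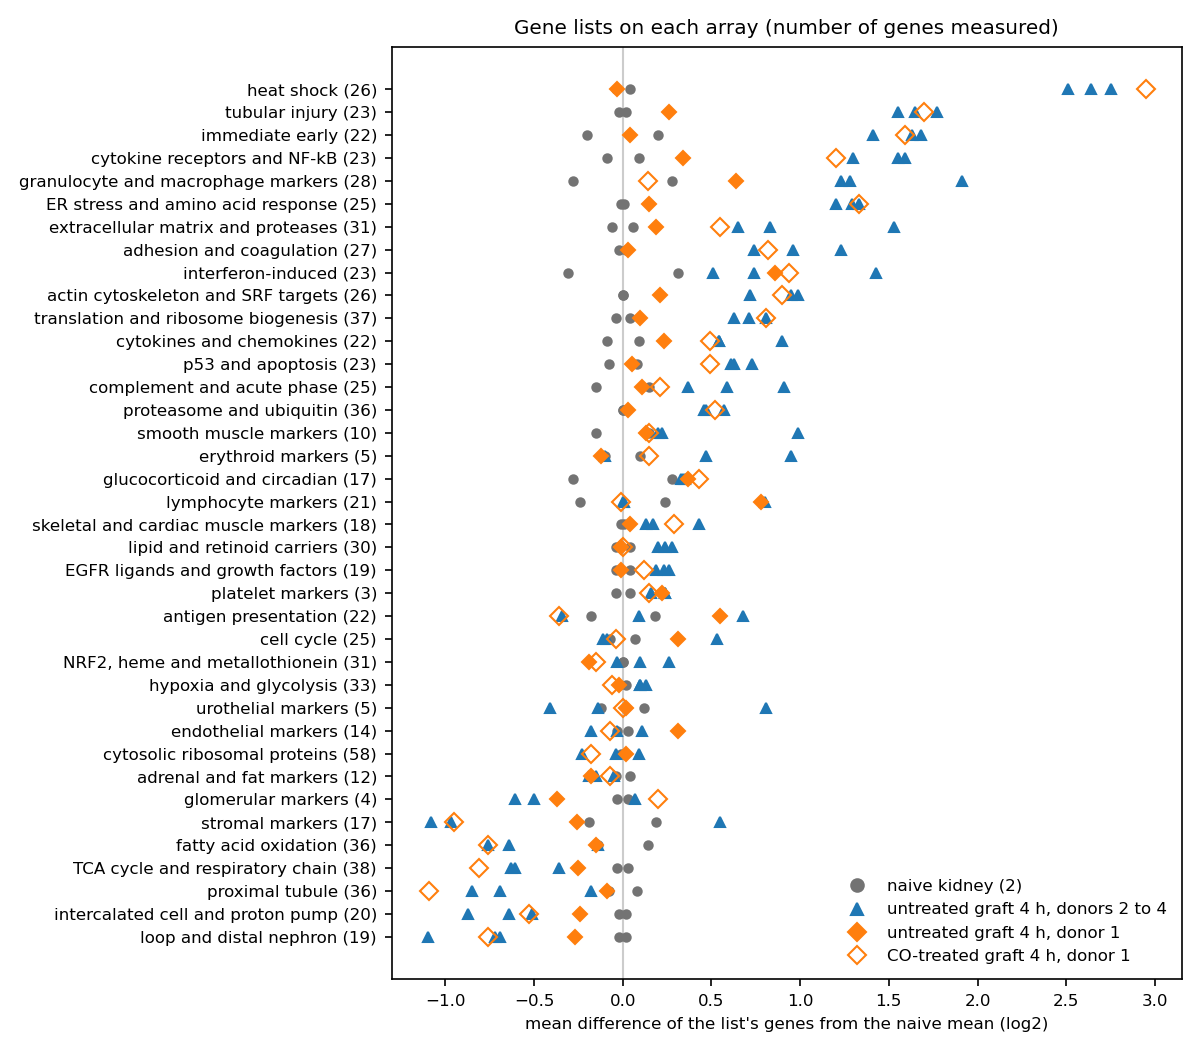
Mean log2 difference of each list's measured genes from the naive mean, for the naive arrays (grey circles), the untreated grafts of donors 2, 3 and 4 (blue triangles), the untreated graft of donor 1 (filled diamond) and the CO graft of donor 1 (open diamond); numbers in parentheses are genes measured. Heat shock stands at 2.51 to 2.75 for donors 2 to 4, at -0.03 for donor 1 and at 2.95 for the CO graft of donor 1.

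Vessel and clotting genes rose at 11 of 27 members and fell at 1 without donor 1 (2 rose with all), with a median of 1.04 (0.68). THBD, the thrombin receptor thrombomodulin that turns thrombin to an anticoagulant, read 3.84 and 3.24 in naive kidney, 5.80 for donor 1 and 5.64, 7.66 and 7.18 in the others (3.03 ± 0.48, adjusted p = 0.0172 with all). All 4 grafts were clear of naive, and donor 1 lay just above donor 2. ICAM1, the leukocyte adhesion molecule, read 4.77 and 5.28 in naive kidney, 5.79 for donor 1 and 7.82, 7.55 and 6.97 in the rest (2.01 ± 0.45, adjusted p = 0.0405). THBS1, a matrix glycoprotein that activates TGF-β, read 2.93 and 3.07, 5.65 for donor 1 and 7.35, 6.55 and 5.07 in the rest at 1 of its 5 probe sets, and rose less, by 1.52 without donor 1, at the brightest. The fall was ANGPT1, the ligand that keeps vessels quiet, which read 3.98 and 4.11 in naive kidney, 3.57 for donor 1 and 1.499, 1.69 and 2.63 in the 3 grafts (-2.11 ± 0.31, adjusted p = 0.000397). Among 25 complement and acute phase genes, 4 rose without donor 1, against 7.05% of all probe sets. The 4 include CD46 (2.12 ± 0.26, adjusted p = 0.0001), a regulator that protects cells from complement. CD55, another such regulator, was at least 6.17-fold above a naive mean below background (adjusted p = 0.000187). CD59, of the same list, stood at -0.69 without donor 1 and did not pass. APOA4, an apolipoprotein, read 2.20 and 2.17 in naive kidney, 1.88 for donor 1 and 6.43, 8.41 and 6.60 in the 3 grafts (4.97 ± 0.75, adjusted p = 0.000568).

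Of 37 genes for translation factors and ribosome assembly, 20 rose without donor 1 (4 with all) and none fell, with a median of 0.78 (0.55). GNL3, nucleostemin of the nucleolus, read 5.07 and 4.99 in naive kidney, 5.88 for donor 1 and 7.03, 7.18 and 6.63 in the rest (1.65 ± 0.30, adjusted p = 0.0257 with all). EIF4A1, the helicase that opens mRNA for the ribosome, read 7.56 and 7.53, 8.10 for donor 1 and 9.04, 9.40 and 8.82 (1.29 ± 0.27, adjusted p = 0.0355). Of 58 cytosolic ribosomal proteins, 1 rose without donor 1 and 0 passed with all (1 at an unadjusted p under 0.05), with a median of -0.09 (-0.08). Among 36 proteasome and ubiquitin genes, 11 rose without donor 1 and 0 with all (13 at an unadjusted p under 0.05), with a median of 0.40 (0.32). PSMD12, a lid subunit of the proteasome, rose from 6.45 and 6.14 to 7.53, 7.94 and 7.53 (1.37 ± 0.20, adjusted p = 0.000389). SQSTM1, the autophagy receptor p62, rose by 1.41 ± 0.31 (adjusted p = 0.00725).

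Genes of the cytoskeleton rose at 12 of 26 members without donor 1 and at 0 with all grafts (15 at an unadjusted p under 0.05), with a median of 0.85 (0.68). LMNA, the nuclear lamin, read 5.71 and 6.00 in naive kidney, 5.82 for donor 1 and 8.92, 9.10 and 8.50 in the 3 grafts (2.98 ± 0.36, adjusted p = 9.07e-05). ACTN1, the actin crosslinker, read 6.19 and 6.54, 7.20 for donor 1 and 8.00, 8.20 and 7.67 in the rest (1.59 ± 0.35, adjusted p = 0.00748). The smallest difference over its 3 probe sets was 0.125 without donor 1. For ACTN1, unlike LMNA, donor 1 was above both naive arrays.

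The genes of the heme and oxidant defence list were mixed. Of 31 members, 4 rose without donor 1 and 0 with all grafts (7 at an unadjusted p under 0.05), with a median of -0.06 (-0.07). Over all probe sets, 7.05% rose without donor 1, and 4973 of 23999 had an unadjusted p under 0.05 with all grafts. HMOX1, heme oxygenase 1, which makes endogenous carbon monoxide, read 5.32 and 6.21 in naive kidney, 6.10 for donor 1 and 7.91, 7.43 and 7.34 in the 3 grafts (1.80 ± 0.35, adjusted p = 0.00302). TXNRD1, thioredoxin reductase, rose from 6.85 and 6.83 to 8.97, 9.99 and 9.18, with donor 1 at 6.68 (2.54 ± 0.31, adjusted p = 0.000106). HMOX2, the constitutive heme oxygenase, did not pass (-0.41 ± 0.26, adjusted p = 0.337). Of 33 hypoxia and glycolysis genes, 2 rose and 2 fell without donor 1, near the shares of all probe sets (7.05% and 6.89%). SLC2A3, a glucose carrier, read 3.01 and 3.70 in naive kidney, 3.54 for donor 1 and 6.68, 6.24 and 6.81 in the 3 grafts (3.22 ± 0.50). LDHA rose by 1.41 ± 0.42, while PFKM (-1.44 ± 0.28) and LDHB (-0.66 ± 0.19) fell. VEGFA (-0.44 ± 0.40, adjusted p = 0.561) and HIF1A (0.56 ± 0.21, adjusted p = 0.0881) did not pass at their brightest probe sets. Over 4 probe sets each, VEGFA ran from -0.44 to 0.52 and HIF1A from -0.17 to 1.21 without donor 1.

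Genes that answer to glucocorticoids and the daily clock moved both ways: of 17, 5 rose and 2 fell without donor 1 and 0 passed with all grafts (8 at an unadjusted p under 0.05). CEBPD, an acute phase transcription factor, read 8.65 and 7.89 in naive kidney, 8.68 for donor 1 and 10.19, 10.31 and 10.31 in the 3 grafts (2.00 ± 0.29, adjusted p = 0.000373). KLF9, a glucocorticoid-induced repressor, fell from 9.47 and 8.33 to 7.59, 7.44 and 7.73, with donor 1 at 9.36 (-1.32 ± 0.32, adjusted p = 0.0136). At its dimmer probe set KLF9 stood at -0.06 without donor 1. For both genes donor 1 lay within or just above the naive range. Of 19 EGFR ligands and growth factors, 2 rose and 1 fell without donor 1. The EGFR ligand HBEGF (1.79 ± 0.38) and TGFB1 (2.71 ± 0.63) rose, and FGF9, a tubule growth factor, fell (-1.63 ± 0.37). Over its 2 probe sets TGFB1 ran from 1.12 to 2.71 without donor 1. Of 25 cell cycle genes, 2 rose, CKS2 (1.51 ± 0.46) and CCND2 (0.98 ± 0.29), and 1 fell, the inhibitor CDKN1B (-0.80 ± 0.24), without donor 1. CDKN1B stood at -0.08 at another of its 3 probe sets. Without donor 1, 7.05% of all probe sets rose and 6.89% fell, so the growth factor and cell cycle counts lie near those shares. Antigen presentation, also near those shares, had 1 rise, CTSS, a lysosomal protease (1.30 ± 0.29, adjusted p = 0.04 with all), and 1 fall, SLA-DMA (-0.82 ± 0.22), among 22 genes. SLA-DMA stood at 0.095 at its other probe set. B2M was counted as not passing at its brightest probe set (-0.03), but rose by 2.94 and 2.36 at dimmer ones of its 9.

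Among genes of the distal nephron, a minority fell. Of 20 intercalated cell and proton pump genes, 5 fell without donor 1 and 2 with all (6.89% and 0.563% of all probe sets), and none rose. ATP6V1C2, a kidney-enriched subunit of the proton pump that acidifies urine, read 7.15 and 7.49 in naive kidney, 6.80 for donor 1 and 3.00, 3.75 and 3.20 in the 3 grafts. Donor 1 lay just below the naive arrays, and the difference was -4.01 ± 0.38 without it (adjusted p = 1.44e-05). ATP6V0A4, the kidney form of another subunit, read 7.37 and 7.49, 6.91 for donor 1 and 4.51, 5.01 and 4.64 (-2.71 ± 0.22 without donor 1, adjusted p = 4.85e-06). The widely expressed subunits did not pass, such as ATP6V1A at -0.43 and ATP6V1B2 at 0.46. Of 19 loop and distal nephron genes, 5 fell without donor 1 and 1 with all, and 17 of 19 lay below 0. KCNJ1, the potassium channel ROMK of the loop and collecting duct, read 8.47 and 8.73 in naive kidney, 8.42 for donor 1 and 5.55, 6.74 and 5.84 in the 3 grafts (-2.56 ± 0.44, adjusted p = 0.00142). WNK4, the kinase that sets salt transport, fell with all grafts, from 5.55 and 5.68 to 4.71 for donor 1 and 3.59, 4.48 and 3.80 (-1.47 ± 0.32, adjusted p = 0.0378).

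Most genes of the proximal tubule lay below the naive level without passing. Of 36, 33 lay below 0 without donor 1, with a median of -0.65 (-0.53), while 0 fell in either fit (2 of 36 had an unadjusted p under 0.05 with all grafts). LRP2 stood at -1.43 and PCK1, the key enzyme of glucose synthesis, at -1.18. The member that rose, in both fits, was CYP27B1, the enzyme that activates vitamin D, which read 5.04 and 4.52 in naive kidney, 7.26 for donor 1 and 6.83, 6.95 and 5.98 in the others (1.97 ± 0.33, adjusted p = 0.0207 with all). The mean of the list above naive was -0.09 for donor 1 and -0.85, -0.69 and -0.18 for donors 2, 3 and 4, so donor 4 lay near donor 1. Of 38 TCA cycle and respiratory chain genes, 15 fell and none rose without donor 1, 2 fell with all, and 37 of 38 lay below 0. SDHC, a subunit of succinate dehydrogenase, read 9.71 and 9.54 in naive kidney, 8.82 for donor 1 and 8.40, 8.34 and 8.64 in the rest (-1.07 ± 0.25, adjusted p = 0.0441 with all). Of 36 fatty acid oxidation genes, 2 fell without donor 1, HADH (-0.87 ± 0.25, adjusted p = 0.0312) and ETFA (-0.83 ± 0.27, adjusted p = 0.0495), and 0 with all grafts (9 at an unadjusted p under 0.05). Among all probe sets 6.89% fell without donor 1, so the fatty acid oxidation count lies near that share. With all grafts, 4973 of 23999 probe sets had an unadjusted p under 0.05.

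Of 17 stromal markers, 5 fell and 1 rose without donor 1 (1 fell with all). Over all probe sets, 6.89% fell and 7.05% rose without donor 1 (0.563% fell with all). MFAP5, a microfibril protein, read 5.96 and 3.88 on naive arrays 1 and 2, 2.67 for donor 1 and 2.65, 2.34 and 3.00 in the rest (-2.25 ± 0.46, adjusted p = 0.0335 with all). The naive arrays differed from each other by more than the grafts did, though no graft reached them. TCF21, a transcription factor of stroma and podocytes, read 7.40 and 7.34, 6.74 for donor 1 and 5.29, 5.86 and 5.20 in the 3 grafts (-1.92 ± 0.42, adjusted p = 0.00641). CDH11, a stromal cadherin, read 6.41 and 6.08 at its brightest probe set, 6.47 for donor 1 and 5.30, 3.95 and 3.65 in the 3 grafts (-1.95 ± 0.45, adjusted p = 0.00927). PDPN, podoplanin of podocytes and fibroblasts, rose instead, from 4.60 and 4.96 to 7.10, 7.60 and 7.20, with donor 1 at 4.19. The mean of the stromal list stood at 0.55 above naive for donor 2 and at -0.97 and -1.08 for donors 3 and 4. Single genes weigh on the mean of donor 2. POSTN read 10.27 there against 4.27 and 4.08 in naive kidney, and LUM 8.65 against 5.96 and 5.25. MFAP5, TCF21 and CDH11 were below naive in donor 2 as well. Donor 2 shares its file-name batch with naive 2. The part of batch or of the amount of stroma sampled in the spread of these means was not tested.

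Which changes the donor 1 graft shared was then asked gene by gene. Over the 3347 probe sets that passed without it, its median share of the change in the other 3 grafts was 22.1% (quartiles 1.7% and 43.2%). It lay outside the naive range in the same direction at 2147 of them (64.1%), within it at 725 and outside in the opposite direction at 475, and it reached the other grafts at 273 (8.16%). Where the change was at least 2 log2, the median share was 15.5% over 379 probe sets. On the probe sets that passed without each of them, the medians of donors 2, 3 and 4 were 118.6%, 136.7% and 86.5%, over 13, 14 and 80 probe sets. Their reference, the mean of the other 3 grafts, includes donor 1, which brings it nearer to naive and raises their shares. These medians therefore cannot be set against the 22.1% of donor 1. The naive values enter each share and both sides of the comparison, so these are descriptions.

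Among genes with changes of at least 1 log2, donor 1 shared some in full. CTSC, the protease that activates granule serine proteases, read 7.34 and 7.22 in naive kidney, 9.84 for donor 1 and 9.98, 9.69 and 9.01 in the others (2.35 ± 0.28, adjusted p = 0.00682 with all), a share of 112%. The share was 138% for CYP27B1, 114% for LCP1, the leukocyte actin bundler, and 107% for cytidine deaminase (CDA). MFAP5, which fell, was shared at 100%. Others were absent or reversed in donor 1: the share was -1.61% for HSPH1, and for ANXA5, a phosphatidylserine-binding protein, it was -47.8%, with 8.40 and 8.06 in naive kidney, 7.65 for donor 1 and 9.44, 9.43 and 9.47 in the 3 grafts. THBD and CD163 lay between, at 68.8% and 62.1%. Of the list means, heat shock was -0.03 above naive for donor 1, immediate early 0.04 and ER stress 0.15, while granulocyte and macrophage markers were 0.64 and interferon-induced genes 0.86.

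**Figure D3:**
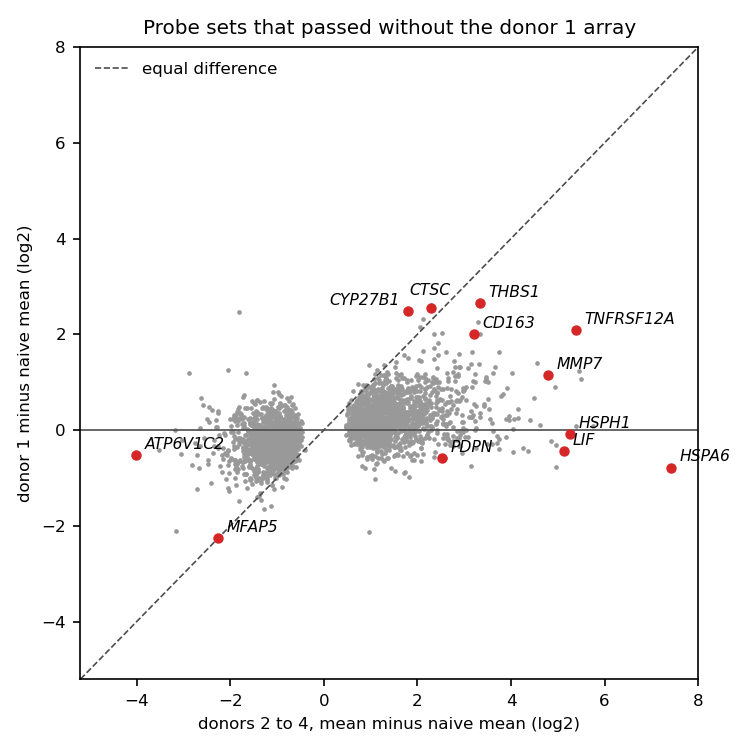
Difference from the naive mean, in log2, of the donor 1 graft (vertical axis) against the mean of donors 2, 3 and 4 (horizontal axis), for the 3347 probe sets that passed without donor 1; the dashed line marks equal differences and red points are named genes. Points gather near 0 on the vertical axis, with a median share of 22.1%, and CTSC, CYP27B1 and MFAP5 lie near or on the dashed line; the threshold that chose the points leaves the gap at the centre.

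The CO graft of the same donor gave a direct comparison, as it carries the same donor number. Its heat shock list stood at 2.95 above naive and its immediate early list at 1.59, against -0.03 and 0.04 for the untreated graft of donor 1. HSPA6 read 10.74, 8.12, 11.04 and 10.95 in the CO grafts of donors 1 to 4. CO against untreated grafts at 4 h passed at 0 of 23999 probe sets in limma (0%, 787 at an unadjusted p under 0.05), and at 0 without donor 1 (568). HSPA6 differed by 1.89 ± 1.39 with and -0.17 ± 0.68 without donor 1, and HMOX1 by -0.07 ± 0.34 and -0.44 ± 0.29. Differences of this width do not show that the 2 treatments act alike.

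The grafts at 24 h, from other donors, share the 4 h arrays with the comparisons above, so values are given side by side. Without donor 1, 1556 probe sets were higher (6.48%) and 1372 lower (5.72%) at 24 h than at 4 h. Batches read from the array file names separate most of the 2 times: only the 24 h graft of donor 5 shares a batch with a 4 h graft, that of donor 2. With batch as a term in the fit of all arrays, 0 probe sets passed (1968 at an unadjusted p under 0.05), so time and batch largely cannot be told apart, and the difference within that batch is given for each gene. Heat shock genes were lower at 24 h at 22 of 26 members without donor 1 (6 with it) and immediate early genes at 7 of 22 (0 with it). HSPA6 read 5.55, 7.22, 4.40 and 6.60 at 24 h in donors 5, 6, 7 and 8 (-4.43 ± 0.68 against 4 h, adjusted p = 0.000983; -4.24 within the batch). FOS read 6.49, 6.37, 5.75 and 7.86 at 24 h (-3.40 ± 0.60, adjusted p = 0.00226; -3.19 within the batch). For both, every 24 h graft was below every 4 h graft of donors 2, 3 and 4.

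Other genes were higher at 24 h than at 4 h. MMP7 read 11.46, 11.53, 10.48 and 11.39 at 24 h (2.31 ± 0.40, adjusted p = 0.00181; 3.20 within the batch), CLU 11.65, 11.60, 10.99 and 11.51 (1.75 ± 0.22, adjusted p = 0.000225; 1.70) and CLDN6, a claudin of immature epithelium, 5.82, 5.88, 6.34 and 6.38 (2.73 ± 0.41, adjusted p = 0.000886; 3.31). The proton pump subunit ATP6V1C2 read 6.46, 5.60, 5.92 and 6.35 at 24 h (2.77 ± 0.32, adjusted p = 0.000149; 3.47 within the batch) and KCNJ1 8.38, 7.75, 8.11 and 8.60 (2.17 ± 0.37, adjusted p = 0.00174; 2.83). Both were higher than in the 3 grafts at 4 h. CYP27B1 read 3.57, 3.65, 3.86 and 3.51 at 24 h (-2.94 ± 0.27, adjusted p = 4.95e-05; -3.26 within the batch), below both naive arrays. With donor 1 in the 4 h group, CYP27B1, MMP7, CLU and CLDN6 still passed, with adjusted p of 3.52e-05, 0.00547, 0.000552 and 0.000408, while ATP6V1C2 (0.0562), KCNJ1 (0.053), FOS (0.13) and HSPA6 (0.333) did not. Proximal tubule genes were lower at 24 h than at 4 h at 23 of 36 members (29 with donor 1).

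**Figure D4:**
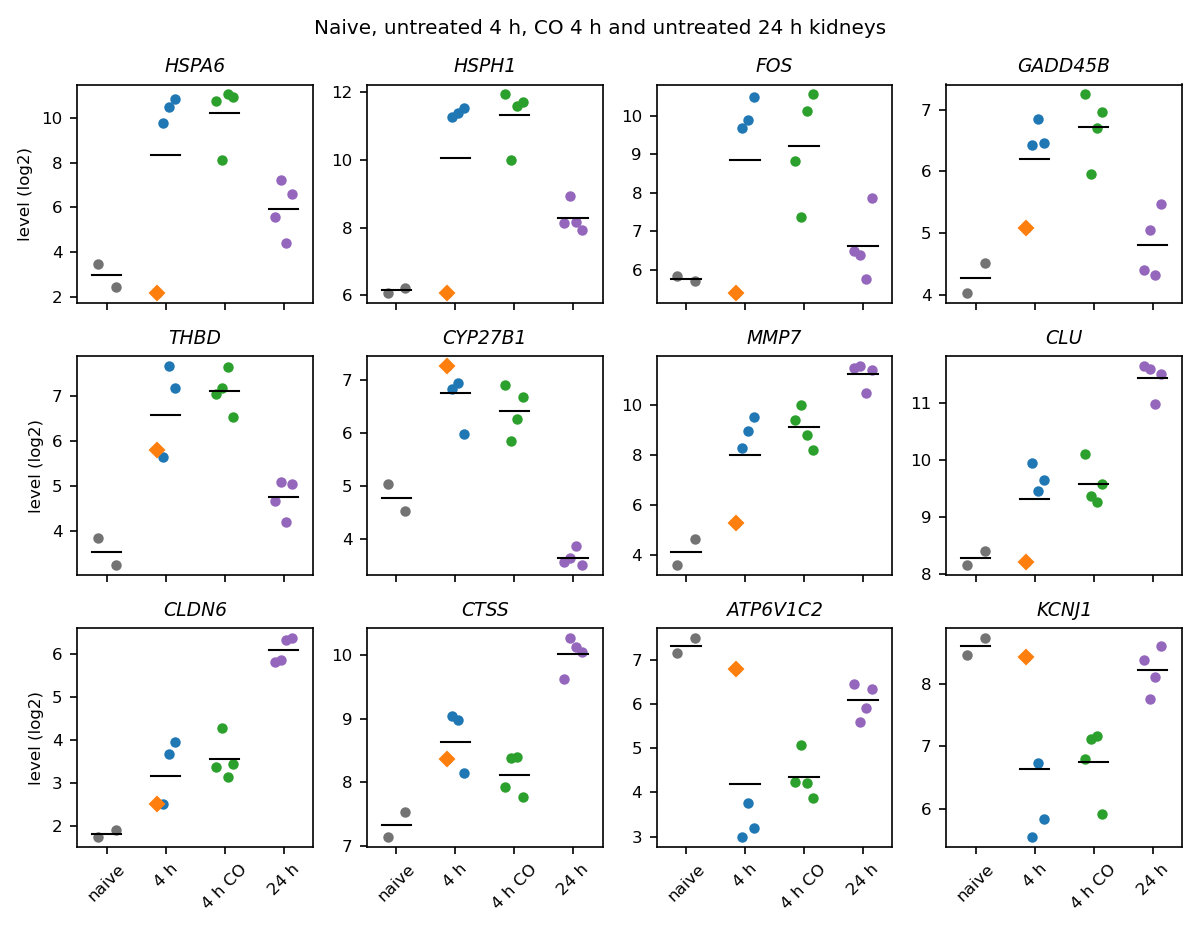
Log2 levels of 12 genes in naive kidneys (n = 2), untreated grafts at 4 h (n = 4, donor 1 as an orange diamond), CO grafts at 4 h (n = 4) and untreated grafts at 24 h (n = 4); points are arrays and bars are means. The untreated means of HSPA6 and FOS are lower at 24 h than at 4 h, those of MMP7, CLU, CLDN6 and CTSS are higher at 24 h, and those of ATP6V1C2 and KCNJ1 are lower at 4 h than in naive kidney and at 24 h.

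The arrays come in file-name batches, and 1 naive array lies in the batch of donors 1, 3 and 4 and the other in that of donor 2. With batch as a term, 3230 probe sets passed without donor 1 and 105 with all grafts. Of the 151 probe sets named by rule that passed without donor 1, 151 had the same sign in the batch of donors 3 and 4 (against naive 1) and in that of donor 2 (against naive 2). Where the 3 grafts do not overlap the naive arrays, as the naming rule often required, this sign is fixed in advance. The count is therefore no test of batch. HSPA6 was higher by 7.21 and 7.33 in these batches, and ATP6V1C2 stood at -3.68 and -4.49. The number in the file name of naive 2 recurs in that of the untreated graft of donor 4, and that of naive 1 in the CO graft of donor 4, and whether animals are shared is not stated. Without donors 1 and 4, 3731 probe sets passed.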

How the data were processed

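Total RNA of 18 pig kidneys had been hybridised to Affymetrix pig arrays. The deposited values are log2 levels per probe set, which the authors made with RMA, per the submitters' processing notes; the version and settings are not given in the sources used here. Precision is limited by the number of arrays. Values ran from 0.226 to 13.46. Without the 124 controls, 23999 of the 24123 probe sets entered the tests, unfiltered. The platform annotation gave 1 gene symbol to 10069, several to 198 and none to 13732, and 9961 matched the Sscrofa11.1 RefSeq table by identifier.

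Groups were taken from source and title. The CO arrays, whose treatment field reads air, were grouped by those. The tests, two-sided, came from limma 3.58.1 (R 4.3.3): 1 linear model with eBayes for the 18 arrays in 5 groups and no block, called at a Benjamini-Hochberg adjusted p under 0.05. The comparisons were untreated grafts at 4 h against naive kidneys, untreated grafts at 24 h and CO grafts at 4 h against untreated grafts at 4 h, each with and without the untreated graft of donor 1. The donor numbers pair CO and untreated grafts but no naive array. The fit was run on simulated arrays with 50 changed probe sets of each size, independent noise and no outlying array or batch. In both runs the size of the noise came from all 18 arrays, donor 1 included. The fit recovered 46% of changes of 1 log2 with all arrays and 48% without donor 1. These figures therefore do not show what leaving out donor 1 does to the real fits. For changes of 0.5 log2 the fit recovered 2% and 4%, so a gene that did not pass may still have changed.

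The members and the 39 gene lists (1340 entries, 907 measured, the brightest probe set for each gene) were chosen with earlier results of these data known. Named genes are the 15 largest rises and falls that passed without overlap of the groups, with and without donor 1, up to 4 members per list, a panel, the genes most and least shared by donor 1, and the largest changes against 24 h. Other list members named in the text were picked after their values were seen. A list is described by counts and by the median difference of its members. Batches are shared first parts of the array file names. Alternatives were the variance model (trend, robust), a filter on dim probe sets, quantile normalisation, median centring, array weights, batch, donor number and the number in the file name as blocks (with statmod 1.5.0), a fit of the compared groups only and single arrays left out. The plots come from matplotlib 3.10.9 (Python 3.11.15).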

Additional observations from a re-analysis of the deposited data

Results flagged for a closer look

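Among the 4 untreated grafts at 4 h, a value was picked out where the gap between the highest or lowest array and its neighbour exceeded Dixon's critical share of 0.829 of the group's range. Chance picks out about 1 in 20 such groups. That rate does not hold for donor 1, which was set apart on its values, with many genes named from fits without it. Its flags describe that choice again and are no separate support. The donor 1 array was the lowest for 5 list means: heat shock (0.914 of the range), immediate early (0.835), tubular injury (0.854), ER stress and amino acid response (0.890) and a panel of stress, cytokine and heme oxygenase genes (0.844). The smooth muscle list was picked out for donor 2, the highest array (0.895).

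Single genes with donor 1 far below the other grafts included the chaperones HSPA6 (0.876), HSPH1 (0.950), DNAJA4 (0.892), DNAJB1 (0.926), HSP70.2 (0.987 and 0.984 at 2 of its 3 probe sets), BAG3 (0.882) and ZFAND2A (0.843). The same held for FOS (0.841), FOSL1 (0.844), ATF4 (0.944), TNFRSF12A at its dimmer probe set (0.865), CDKN1A (0.908), ADAMTS1 (0.846), PDPN (0.852), CEBPD (0.926), CCND2 (0.865) and ANXA5 (0.976). For KLF9, a glucocorticoid-induced factor, donor 1 was the highest (0.848).

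Untreated grafts at 24 h differed from those at 4 h at 2332 probe sets in the direct limma test with all arrays; the 2 times lie mostly in different file-name batches.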

How the results depend on the processing

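With all 4 grafts, 361 probe sets passed; this became 4760 with array weights, which weight down single arrays, 105 with batch as a term, 586 with the file-name animal number as a block and 0 when only the compared groups were fitted. It was 276 with the donor number as a replicate block. Without donor 1, 3347 became 6051 with array weights, and it was 3573 with the replicate block. The 24 h comparison, 2332, became 4978 with array weights, 0 with batch as a term and 1462 with the compared groups only. Leaving out 1 array gave 2 to 3347, 1220 to 3731 and 1320 to 2928 in these comparisons. The other settings kept these counts within 1.5 times, and CO against untreated passed at 0 in every setting run. TNF and NOS2, which never passed, changed sign. With all grafts, TNF was 0.016 with array weights and ran from -0.174 to 0.033 when 1 array was left out, and NOS2 from -0.283 to 0.390. With donor 1 left out as well, TNF ran from -0.054 to 0.089 and was -0.008 without naive 2, and NOS2 ran from -0.276 to 0.397 and was -0.007 without donor 2. Among named probe sets, 283 values lost the threshold with all grafts and 240 gained it, against 215 and 11 without donor 1. The causes were not tested. With 2 naive arrays, a difference between their levels cannot be averaged out.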

Other observations

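Some genes differed between the naive kidneys themselves. MFAP5 read 5.96 on naive 1 and 3.88 on naive 2, PLIN2, which coats lipid droplets, 7.60 and 6.00, and KLF9 9.47 and 8.33. For PLIN2 the untreated grafts at 4 h read 7.83, 8.23, 10.92 and 9.23, so donor 1 lay close to naive 1 (2.66 ± 0.73 without donor 1, limma adjusted p = 0.0239). For KLF9 donor 1 read 9.36 and donors 2, 3 and 4 read 7.59, 7.44 and 7.73. The list of glucocorticoid and circadian genes lay at 0.28 for naive 1 and -0.28 for naive 2 around their mean. The control transcripts added during labelling read between 2.32 and 6.04 on the 6 arrays, higher in the file-name batch of naive 2 and donor 2.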
